A study of Mus musculus with 9 samples.

Results

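The small leucine-rich proteoglycans (SLRPs) were followed through 8 genes of the family, Dcn, Bgn, Lum, Fmod, Ogn, Aspn, Prelp and Omd, out of 19938 genes measured. A row of the expression table was taken as a member where the array's annotation gave it 1 of these symbols, and the brightest probe set (the group of probes that measures a gene) was kept for a gene. Each of the 8 members had 1 probe set, so nothing was chosen among probe sets. Total RNA from 3 mouse cell lines was hybridised to Gene 1.0 ST arrays, with 3 arrays for each line and 100 ng of RNA for each array.

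The lines were P19 NTES7, R1 and P19. P19 NTES7 is a line of pluripotent stem cells that the study derived by nuclear transfer, from a cloned blastocyst that carried the nucleus of a P19 cell. The sample labels name it only as stem cells derived from P19, and the arrays were taken as P19 NTES7 because that is the line in the study's array comparisons. R1 is a mouse embryonic stem (ES) cell line, and P19 is a mouse embryonal carcinoma (EC) line, the malignant stem cell of a teratocarcinoma. All 3 lines were grown in ES medium with 15% FBS and with LIF, the cytokine that keeps mouse ES cells undifferentiated, at 1000 units/ml. The methods place the pluripotent stem cells on mouse embryonic fibroblasts treated with mitomycin C and name no such layer for P19, but for the arrays they state that ES cells were harvested without feeders, and the series description likewise says that feeder cells were removed. Each line is 1 clone or 1 established line, and the comparisons ask how far the cloned line had moved from its EC parent towards an ES line.

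SLRPs are secreted proteins of the extracellular matrix, with a core of leucine-rich repeats that carries chondroitin or dermatan sulfate chains in some members and keratan sulfate chains in others. They sit on collagen fibrils and set their spacing and width, and several of them bind TGF-β and other growth factors. Fibroblasts of connective tissues such as skin, tendon and cornea are their best known source. In mouse the genes lie in clusters: Dcn and Lum are neighbours on chromosome 10, followed by Kera and Epyc, Aspn, Omd and Ogn follow each other on chromosome 13, Prelp and Fmod are neighbours on chromosome 1, and Bgn stands by itself on the X chromosome.

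The values were normalised intensities on a linear scale, whose array medians lay between 16.5 and 17.5. They carry no call of whether a gene was detected, so a gene below the array median is described as low and not as absent. The 3 arrays of a line are labelled as biological repeats, but no source says that they were separate cultures, and the p-values therefore reflect only the scatter among arrays. R1 replicates 1 and 2 were closer to each other than the other R1 pairs, and R1 replicate 3 stood apart from them. The SD of the log2 difference, over 14426 probe sets above the median level, was 0.109 for R1 replicates 1 and 2 and 0.297 and 0.305 for the other R1 pairs. P19 replicates 1 and 2 were likewise the closest P19 pair, at 0.160 against 0.236 and 0.267. Counting R1 replicates 1 and 2 as 1 array, or leaving out R1 replicate 3, changed no call of a member. Pou5f1, the core factor of pluripotent cells, averaged 1471 ± 199 in P19 NTES7 and 1470 ± 153 in R1 (SD, n = 3 each). In P19 it averaged 2196 ± 109, so all 3 lines carried this marker of their label. Nanog and Sox2, also markers of pluripotent cells, were highest in R1. Nanog averaged 627 in P19 NTES7, 913 in R1 and 178 in P19, and Sox2 averaged 542, 884 and 665. Of the 8 pluripotency markers measured, 3 passed the limits given below in each comparison, so the lines were not alike in them.

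A gene was called where its adjusted p in limma was under 0.01 and its fold over 2. In P19 NTES7 against P19, 2 of the 8 members were called, Bgn and Dcn, both higher, where 2.83% of all genes were called, 1.44% higher and 1.38% lower. In R1 against P19, 3 of the 8 were called, Dcn, Bgn and Lum, all higher, where the share called among all genes was 7.31%, with 3.85% higher and 3.46% lower. In P19 NTES7 against R1, 2 of the 8 were called, Lum and Dcn, both lower, where 4.51% of all genes were called, 1.68% higher and 2.84% lower. The other 5 members, Fmod, Ogn, Aspn, Prelp and Omd, were called in none of the 3 comparisons and lay below the array median on all 9 arrays. The members' median log2 difference was 0.47 in P19 NTES7 against P19, 0.53 in R1 against P19 and -0.12 in P19 NTES7 against R1, beside 0.02, 0.02 and 0.01 over all genes.

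**Figure D1:**
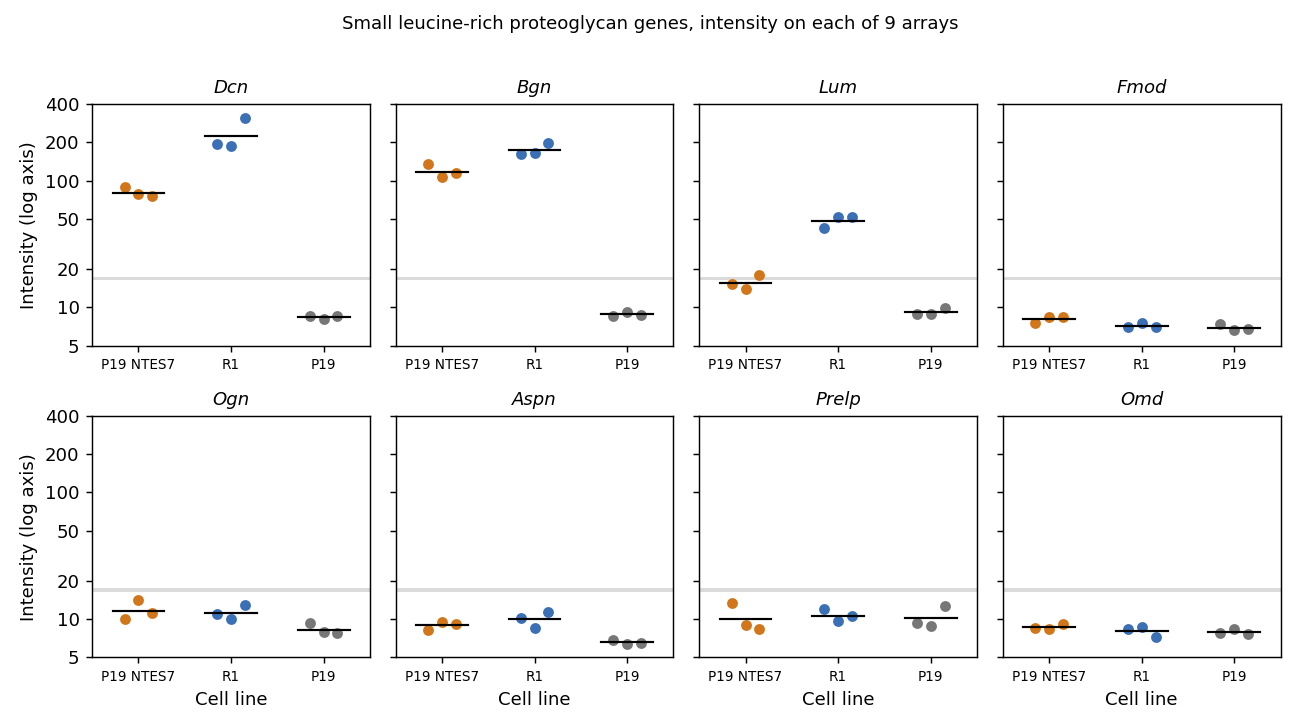
Intensity (log axis) of the 8 members on each array, with P19 NTES7, R1 and P19 from left to right, replicates 1 to 3 as points and the mean of the log2 values as a line, and with the range of the 9 array medians as a grey band. Dcn and Bgn lie above the band in P19 NTES7 and R1 and below it in P19, Lum lies clearly above it only in R1, and the other 5 genes lie below it throughout.

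Decorin (Dcn) carries a single chondroitin or dermatan sulfate chain, limits the width of collagen fibrils and binds TGF-β. Dcn had intensities of 88.7, 78.0 and 75.0 in P19 NTES7 (replicates 1 to 3) and 196, 186 and 313 in R1, against 8.55, 8.17 and 8.63 in P19. R1 replicate 3 stood above the other R1 arrays. The 3 lines did not overlap, with R1 highest and P19 lowest, and Dcn was low on every P19 array. The log2 difference was 3.25 (SE 0.16, adjusted p 2.01e-08) for P19 NTES7 against P19 and 4.74 (SE 0.16, adjusted p 1.49e-10) for R1 against P19. These are folds of 9.51 and 26.6 over a P19 level that lay below the array median, so their size depends on the floor of the array. Set against the P19 array median instead, Dcn was 4.84 times it in P19 NTES7 and 13.6 times it in R1. In P19 NTES7 against R1, Dcn was lower by -1.49 on the log2 scale (SE 0.16, adjusted p 1.47e-05), and without R1 replicate 3 by -1.25.

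Biglycan (Bgn) is the closest relative of decorin, carries chondroitin or dermatan sulfate chains and binds collagens, TGF-β and BMPs. Bgn had 135, 106 and 114 in P19 NTES7 and 162, 166 and 199 in R1, against 8.59, 9.17 and 8.74 in P19. As with Dcn, the lines did not overlap and all P19 arrays were low, but the cloned line lay nearer to R1. The log2 difference was 3.74 (SE 0.12, adjusted p 2.39e-10) for P19 NTES7 against P19, the largest of a member in that comparison, and 4.31 (SE 0.12, adjusted p 2.47e-11) for R1 against P19. These are folds of 13.3 and 19.8, or 7.11 and 10.5 times the P19 array median. In P19 NTES7 against R1, Bgn was lower by -0.57 (SE 0.12, adjusted p 0.00228), which passed the limit on p and not the limit on the fold.

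A promoter window from RefSeq (build GRCm38.p6), 250 bases before to 50 bases after the start of the gene, was matched for 6 of the 8 members. Dcn and Lum were not matched. The Bgn window (chrX:73483351-73483650, plus strand) is shown because Bgn was the 1 called member with a match, and the Ogn window (chr13:49607765-49608064, plus strand) is shown as that of a member that was not called. Both are written 5′ to 3′ in the direction of the gene, with GC boxes (GGGCGG) and TATA boxes (TATAAA), searched on both strands, in capitals.
Bgn: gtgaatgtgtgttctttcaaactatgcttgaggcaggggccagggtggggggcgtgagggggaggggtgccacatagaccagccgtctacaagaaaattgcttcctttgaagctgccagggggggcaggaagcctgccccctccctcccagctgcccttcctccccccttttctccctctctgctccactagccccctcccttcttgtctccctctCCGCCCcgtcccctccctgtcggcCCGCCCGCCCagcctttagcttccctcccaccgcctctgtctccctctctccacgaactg
Ogn: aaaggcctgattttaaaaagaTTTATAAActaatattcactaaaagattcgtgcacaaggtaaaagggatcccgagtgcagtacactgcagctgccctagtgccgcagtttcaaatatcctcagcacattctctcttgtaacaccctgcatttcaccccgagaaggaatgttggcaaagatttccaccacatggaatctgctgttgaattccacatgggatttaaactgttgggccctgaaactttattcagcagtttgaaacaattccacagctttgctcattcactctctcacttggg
The Bgn window is 63.7% G and C and holds 3 GC boxes, of which 2 overlap, and no TATA box. The Ogn window is 42.3% G and C and holds no GC box and 2 matches to TATAAA on opposite strands that overlap, 229 and 227 bases before the start. Of all 32851 RefSeq windows of this length, 35.7% hold a GC box and 13.6% hold TATAAA, and the median window is 52.7% G and C. Among the 6 matched members only Bgn held a GC box, and the G and C share of the other 5 was between 31% in Aspn and 55.3% in Prelp. Aspn also held 2 matches to TATAAA, 207 and 178 bases before the start, and no matched member other than Ogn and Aspn held one. A CCAAT box (CCAAT), which 37.4% of all windows hold, was found in Fmod, Aspn and Prelp, and an AP-1 site (TGANTCA), which 7.81% hold, in none of the 6.

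Lumican (Lum) carries keratan sulfate chains and orders the collagen fibrils of the cornea. Lum had 15.4, 13.9 and 18.2 in P19 NTES7 and 42.2, 51.6 and 51.3 in R1, against 8.83, 8.92 and 9.92 in P19. The lines did not overlap, but only 1 of the 3 P19 NTES7 arrays was above the array median, whereas all 3 R1 arrays were above it. The log2 difference was 2.39 (SE 0.12, adjusted p 5.23e-09) for R1 against P19, a fold of 5.23 over a low P19 level and 2.90 times the P19 array median, and -1.62 (SE 0.12, adjusted p 4.15e-07) for P19 NTES7 against R1. For P19 NTES7 against P19 it was 0.77 (SE 0.12, adjusted p 0.000501), a fold of 1.71 that missed the limit on the fold.

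**Figure D2:**
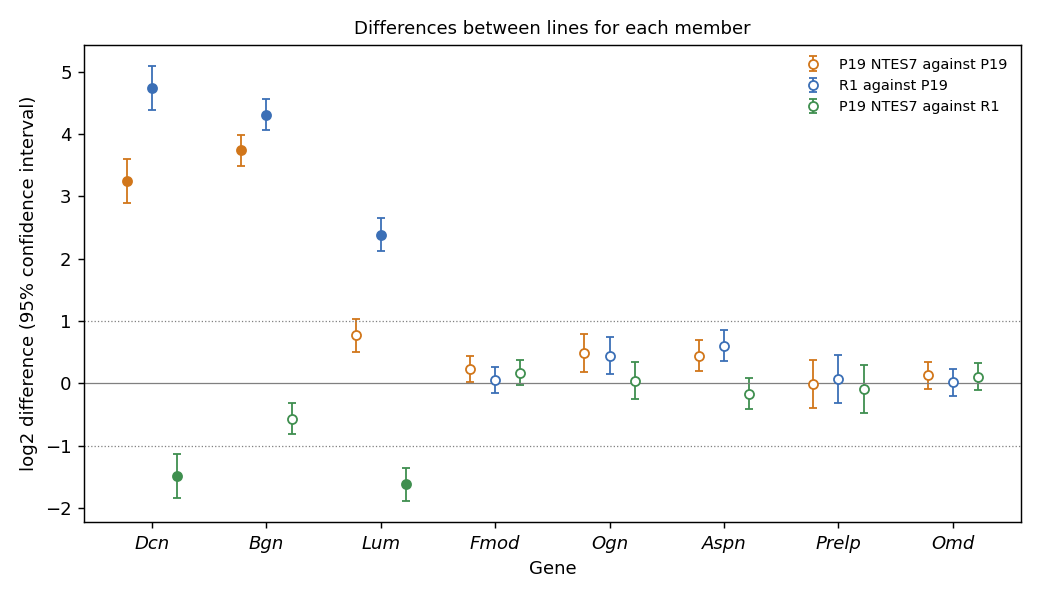
log2 difference of each member with its 95% confidence interval, for P19 NTES7 against P19 (orange), R1 against P19 (blue) and P19 NTES7 against R1 (green); filled points passed both limits and dotted lines mark a fold of 2. Bgn and Dcn are filled in P19 NTES7 against P19 at 3.74 and 3.25, and Lum in that comparison is open at 0.77.

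The place of the cloned line between P19 and R1 was described as a share of the distance between them. On the log2 scale, P19 NTES7 had covered a share of 0.87 of the distance between P19 and R1 for Bgn (0.83 to 0.91 over its 3 arrays), 0.69 for Dcn (0.67 to 0.72) and 0.32 for Lum (0.25 to 0.41). The ranges cover only the P19 NTES7 arrays, and the shares rest on P19 levels near the floor of the array. With 16 added before the log the shares of Bgn, Dcn and Lum were 0.83, 0.60 and 0.25, and on the linear scale 0.66, 0.32 and 0.17, so the sizes depended on the scale. These other scales were chosen after seeing the data. The log2 ratio of Dcn to Bgn on the same array averaged -0.55 ± 0.09 in P19 NTES7 and 0.36 ± 0.25 in R1 (SD, n = 3 each), a difference of -0.92. The ratio of Lum to Bgn differed by -1.05 between P19 NTES7 and R1, and the ratio of Dcn to Lum by 0.13. A ratio of 2 probe sets carries the brightness of both, so only its difference between lines is read. The lines did not overlap in the first 2 of these ratios, and the two-sided exact permutation p was 0.1 for each, the smallest that 3 arrays against 3 allow (0.12 adjusted over 6 ratios). For Dcn to Lum the arrays overlapped (exact permutation p 0.7).

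Fibromodulin (Fmod) carries keratan sulfate and binds type I collagen. Fmod had 7.53, 8.42 and 8.44 in P19 NTES7, 6.95, 7.61 and 7.02 in R1 and 7.40, 6.63 and 6.82 in P19. All 9 values lay below the array median, and the P19 NTES7 arrays lay just above those of P19. The log2 difference was 0.23 for P19 NTES7 against P19 (95% confidence interval 0.02 to 0.43, adjusted p 0.129) and 0.05 for R1 against P19 (-0.16 to 0.26, adjusted p 0.733). Prelp, which anchors basement membranes to connective tissue, had 13.5, 9.07 and 8.40 in P19 NTES7, 12.1, 9.63 and 10.5 in R1 and 9.40, 8.82 and 12.7 in P19. It was the 1 member whose P19 NTES7 and P19 arrays overlapped, and its log2 difference between these lines was -0.01 (-0.39 to 0.38, adjusted p 0.983).

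The 3 members of the chromosome 13 cluster were also low on every array. Osteoglycin (Ogn), also called mimecan, a member found in bone and cornea, had 9.99, 14.1 and 11.2 in P19 NTES7, 11.1, 10.1 and 12.9 in R1 and 9.32, 7.91 and 7.74 in P19. Its log2 difference was 0.49 for P19 NTES7 against P19 (adjusted p 0.0243) and 0.45 for R1 against P19 (adjusted p 0.0240), neither past the limit on p. Asporin (Aspn), which binds TGF-β and collagen in cartilage and in the periodontal ligament, had 8.23, 9.56 and 9.12 in P19 NTES7, 10.2, 8.57 and 11.5 in R1 and 6.92, 6.37 and 6.44 in P19. P19 was the lowest line for Aspn, with no overlap with either of the others, and the log2 difference was 0.45 (adjusted p 0.0148) for P19 NTES7 against P19 and 0.61 (adjusted p 0.000975) for R1 against P19. The second of these passed the limit on p and not that on the fold. Osteomodulin (Omd), a keratan sulfate member of bone, lay between 7.23 and 9.22 over the 9 arrays, and its log2 difference was 0.13 (-0.08 to 0.35, adjusted p 0.425) for P19 NTES7 against P19. Prelp, Omd and Fmod had intervals that stayed within a fold of 2 in all 3 comparisons, and so did Ogn and Aspn. All of these genes were low on every array, where a change in RNA may not show, so the intervals describe only the intensities.

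Arrays of 2 lines did not overlap for 7 of the 8 members in P19 NTES7 against P19, 5 in R1 against P19 and 3 in P19 NTES7 against R1, where 36.2%, 47.4% and 39% of all genes did not overlap. The P19 NTES7 against P19 and R1 against P19 comparisons share the P19 arrays. The 10 other family genes that were measured (Kera, Epyc, Optc, Ecm2, Nyx, Chad, Chadl, Podn, Podnl1 and Nepn) gave no call in any comparison. Among all genes, 2.83%, 7.31% and 4.51% were called, and a list of 10 is too short for its lack of calls to differ from these shares. Nyx was the 1 of them above the array median on each array, and it averaged 57.2 in P19 NTES7, 59.3 in R1 and 54.2 in P19. Kera, the keratocan gene next to Lum on chromosome 10, averaged 6.81 in P19 NTES7, 6.77 in R1 and 6.70 in P19. The called genes Dcn and Lum are thus neighbours, and Lum also lies beside a gene of the same cluster that was low in all lines. Bgn, the remaining called gene, lies on another chromosome.

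Over the 9 arrays, the log2 values of Dcn and Bgn had a Pearson r of 0.980, those of Dcn and Lum 0.906 and those of Bgn and Lum 0.817. The arrays are 3 lines of 3, so these values mostly give the order of the lines and are a description. Among 10239 genes above the array median, the genes most like Dcn were Dnah8, an axonemal dynein chain (r 0.998), Ddx58, the RNA sensor RIG-I (r 0.998), and Col6a3, a type VI collagen chain (r 0.997). Those most like Bgn were Col12a1, a collagen of fibril surfaces (r 0.999), Fst, the activin antagonist follistatin (r 0.998), and Col1a2, a chain of type I collagen (r 0.997). Those most like Lum were Dsg2, a desmosomal cadherin (r 0.995), Yes1, a kinase of the Src family (r 0.991), and Trp53inp1, a p53-induced gene (r 0.989).

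The counts of this list and of those below stand beside the shares called among all genes. These were 1.44% higher and 1.38% lower in P19 NTES7 against P19, and 3.85% and 3.46% in R1 against P19. In P19 NTES7 against R1 they were 1.68% higher and 2.84% lower. The collagens that SLRPs bind were taken from a list of 11. In P19 NTES7 against P19, 7 were called higher and none lower, and the same number were called higher in R1 against P19, namely Col1a1, Col1a2, Col3a1, Col6a1, Col6a2, Col6a3 and Col12a1 in both. Col1a2, which partners Col1a1 in type I collagen, averaged 164 ± 23.1 in P19 NTES7, 231 ± 13.7 in R1 and 22.8 ± 2.42 in P19 (SD, n = 3 each). None of the 11 was called in P19 NTES7 against R1, where the median log2 difference was -0.30. Set against Col1a1 on the same array, Dcn differed by -1.26, Lum by -1.39 and Bgn by -0.35 on the log2 scale between P19 NTES7 and R1, with no overlap of the arrays and an exact permutation p of 0.1 for each (0.12 adjusted over 6). Col1a1 itself was close between these lines (mean log2 8.19 in P19 NTES7 and 8.42 in R1), so these ratios largely repeat the members' own differences. The 11 collagens ranged from -0.76 to -0.08 in this comparison, and ratios to the others were not computed.

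Growth factors and receptors that SLRPs bind formed a list of 19. In P19 NTES7 against P19, 4 were called higher (Pdgfra, Tgfbr3, Ccn2 and Pdgfrb) and 1 lower (Tgfb3). In R1 against P19, 5 were called higher and 2 lower. Pdgfra, a receptor for platelet-derived growth factor, averaged 49.4 ± 4.45 in P19 NTES7 and 9.79 ± 0.83 in P19, with a log2 difference of 2.33 (adjusted p 9.42e-09). Tgfb3, a TGF-β ligand, averaged 18.1 ± 2.66 in P19 NTES7 and 44.7 ± 3.76 in P19 and fell by 1.31 on the log2 scale (adjusted p 5.23e-06). Bmp4, a ligand that biglycan binds, averaged 113 ± 8.33 in R1 and 14.2 ± 0.37 in P19, a log2 difference of 2.99 (adjusted p 2.44e-10), while in P19 NTES7 it averaged 12.8 ± 1.67 and was not called against P19. Of 13 measured genes that respond to TGF-β, 8 were called higher in P19 NTES7 against P19 and 8 in R1 against P19, none was called lower, and none was called between P19 NTES7 and R1. That last count was 3 without P19 NTES7 replicate 1 and 2 without R1 replicate 3. Lox, which cross-links collagen, had the largest difference of them, 2.47 in P19 NTES7 against P19 (adjusted p 1.64e-06) and 3.34 in R1 against P19 (adjusted p 2.30e-08).

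Among 12 proteases that process or cut SLRPs, 1 was called higher in P19 NTES7 against P19 (Mmp3), 5 in R1 against P19 (Mmp3, Mmp13, Mmp14, Mmp9 and Bmp1), and 3 were called lower in P19 NTES7 against R1 (Mmp3, Mmp13 and Mmp14). Mmp3, stromelysin-1, had 51.5, 56.5 and 56.4 in P19 NTES7, 309, 304 and 267 in R1 and 6.73, 7.30 and 8.19 in P19. The count for P19 NTES7 against P19 was 2 without P19 NTES7 replicate 2, and likewise without P19 NTES7 replicate 3.

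The sugar chains of SLRPs are built by enzymes of the Golgi. Of 24 enzymes of the linker and of chondroitin and dermatan sulfate, none was called higher in any comparison, 2 were called lower in P19 NTES7 against P19 (Dse and Xylt1), 3 in R1 against P19 (Csgalnact1, Chst15 and Xylt1) and 1 in P19 NTES7 against R1 (Dse). Xylt1, which starts the chains, averaged 18.3 ± 0.47 in P19 NTES7, 18.6 ± 1.48 in R1 and 39.1 ± 1.76 in P19. Dse, the epimerase that turns chondroitin into dermatan sulfate, had 68.1, 62.6 and 58.4 in P19 NTES7, 179, 184 and 157 in R1 and 155, 147 and 145 in P19, so the cloned line was the low one. Its log2 difference was -1.24 (adjusted p 1.83e-06) for P19 NTES7 against P19 and -1.46 (adjusted p 1.97e-07) for P19 NTES7 against R1. Of 8 keratan sulfate enzymes, B4galt1 was called higher and Chst1 lower in P19 NTES7 against P19, B3gnt7 higher and Chst1 lower in R1 against P19, and Chst1 higher in P19 NTES7 against R1 (log2 difference 1.31). Chst1, which sulfates the galactose of keratan sulfate, had 20.6, 14.8 and 20.8 in P19 NTES7, 6.77, 7.34 and 8.35 in R1 and 36.4, 34.5 and 63.7 in P19. Without P19 replicate 3, 1 of the keratan sulfate enzymes was called in each comparison against P19, and 1 was called in R1 against P19 without R1 replicate 1 or R1 replicate 2. Between P19 NTES7 and R1, 2 were called without R1 replicate 3 or P19 NTES7 replicate 3.

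**Figure D3:**
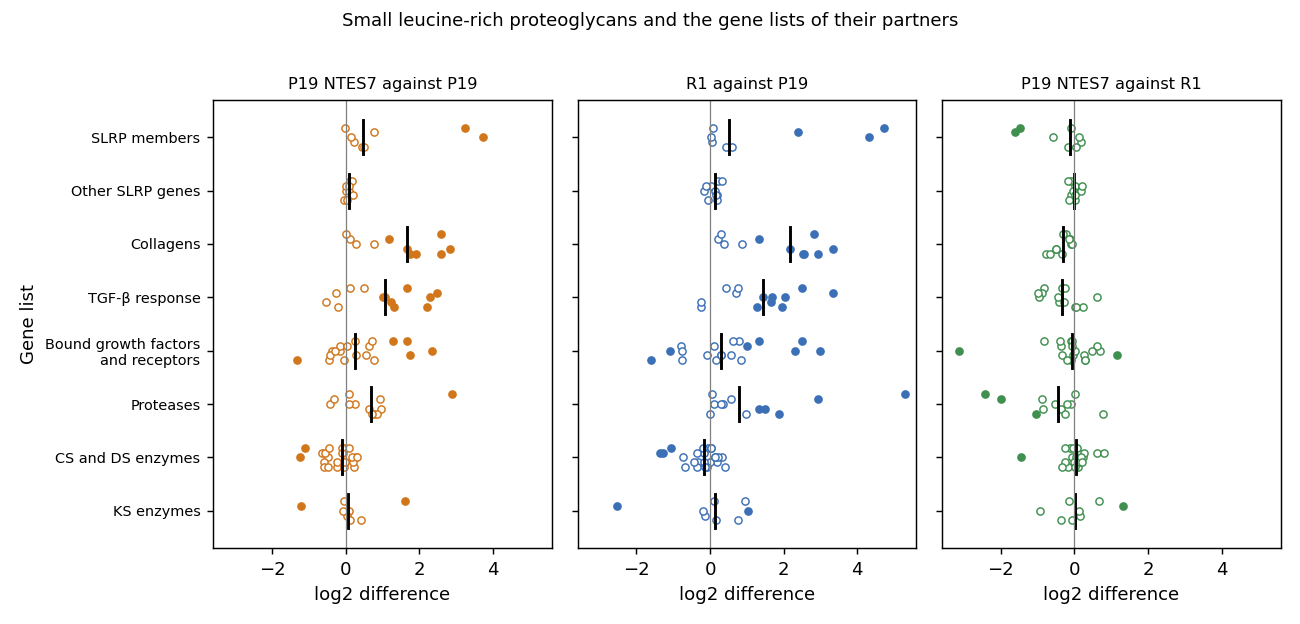
log2 difference (x axis) of each gene of the SLRP members and of 7 lists of family genes and partners, for P19 NTES7 against P19, R1 against P19 and P19 NTES7 against R1; filled points were called and black bars are list medians (CS, DS and KS are chondroitin, dermatan and keratan sulfate). Collagens are filled to the right in both comparisons against P19, and no sulfate-chain enzyme of the CS and DS list is filled to the right.

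Because feeder layers are fibroblasts, fibroblast markers other than SLRPs were set beside the members on each array. Of 21 measured, 13 were called higher in P19 NTES7 against P19 and 16 in R1 against P19, and 3 were called lower in P19 NTES7 against R1 (Mmp3, Prrx1 and Thbs1). The matching shares over all genes were 1.44%, 3.85% and 2.84%. Their summed intensity was 1410 to 1707 in P19 NTES7, 2301 to 2452 in R1 and 404 to 434 in P19, and 19 to 20 of them lay above the array median in P19 NTES7, 20 in R1 and 7 to 10 in P19. The defining markers Prrx1, a mesenchymal transcription factor, and Postn, a matrix protein, averaged 38.5 ± 1.65 and 28.2 ± 1.65 in P19 NTES7, 99.7 ± 9.65 and 40.5 ± 4.09 in R1 and 8.74 ± 0.33 and 8.17 ± 0.25 in P19. Col1a1 averaged 297 ± 61.3 in P19 NTES7, 342 ± 29.6 in R1 and 49.2 ± 11.6 in P19. The marker list shares Col1a1, Col1a2, Col3a1 and other genes with the lists of partners above. The means of 17 of the 21 markers had the order of Dcn, Bgn and Lum, with R1 highest and P19 lowest. The other 4 did not: Acta2, Tagln and Pdgfra were highest in P19 NTES7 (200, 40.8 and 49.4, against 169, 39.5 and 48.7 in R1), and Mmp2 averaged 52.5 in P19 NTES7, 76.7 in R1 and 70.7 in P19. For the order of the 17 markers, the share of all genes was not computed. The part of the markers' source in the SLRP values was not tested. In bulk RNA, fewer cells of a type and less RNA per cell cannot be told apart.

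**Figure D4:**
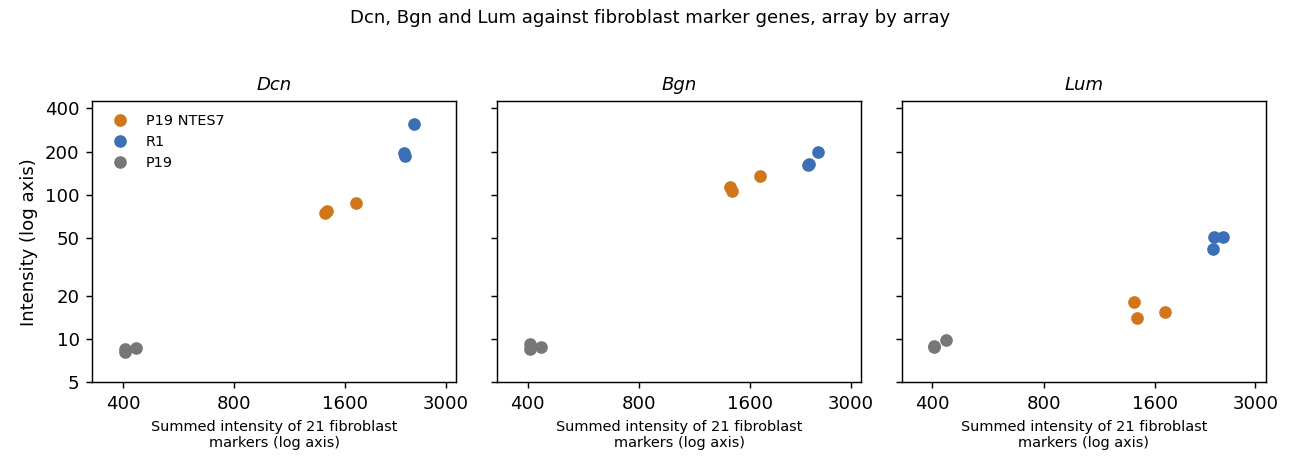
Intensity of Dcn, Bgn and Lum (y axis, log) against the summed intensity of 21 fibroblast markers (x axis, log), with 1 point for each of the 9 arrays. The P19 arrays sit at 404 to 434 on the x axis, those of P19 NTES7 at 1410 to 1707 and those of R1 at 2301 to 2452, and the members follow the same order.

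Cartilage and bone cells also make SLRPs. None of 10 cartilage and bone markers was called in any comparison, and their summed intensity was 205 to 234 in P19 NTES7, 236 to 270 in R1 and 223 to 250 in P19. Acan, the cartilage proteoglycan, averaged 11.0 ± 1.16 in P19 NTES7, 12.4 ± 0.50 in R1 and 20.2 ± 3.19 in P19, and Ibsp, a bone matrix protein, lay below the array median in the mean of each line. Col2a1, a cartilage collagen, lay above the array median on all 9 arrays, and its mean was highest in R1 and lowest in P19. Of the 10 markers, 3 lay above the median on each P19 NTES7 and R1 array and 4 on each P19 array. Of 10 primitive endoderm markers, 2 were called higher in P19 NTES7 against P19, beside 1.44% of all genes. In R1 against P19, 1 was called higher (3.85% of all genes), and in P19 NTES7 against R1, 1 was called lower (2.84%). The first of these counts was 1 to 2 when each array was left out in turn. None of 9 muscle markers was called with all arrays, but R1 replicate 3 had a sum of 139 for them and the other R1 replicates 273 and 277. Without R1 replicate 3, 2 muscle markers were called higher in R1 against P19 and 1 lower in P19 NTES7 against R1. R1 replicate 3 was also the highest R1 array for Dcn and Bgn, and for 9 of the 16 called fibroblast markers (56.2%), beside 56.1% of all genes above the median.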

How the data were processed

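RNA of P19 NTES7, R1 and P19 was measured on 9 Gene 1.0 ST arrays, 3 for each line, each from 100 ng of total RNA. The deposited values are intensities on the linear scale, 1 for each of 28853 probe sets, which the authors made with Robust Multichip Average (RMA). No source used here gives its version. They were used as deposited, with no further normalization, and without counts or detection calls. The number of arrays limits the precision.

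A single limma model (limma 3.58.1 in R 4.3.3) was fitted to the log2 intensities of all 9 arrays, in which each line had its own mean. Every adjusted p of a gene is limma's, adjusted by Benjamini-Hochberg over all probe sets of a comparison. Levels carry an SD over arrays and log2 differences a standard error (SE). The array annotation gave 1 symbol for 21789 probe sets, several for 1621 and none for 5443, and 19938 genes were named from the first kind. Of 201 list entries, 195 were measured. Differences of ratios were tested by two-sided exact permutation of arrays. Genes named were all 8 members, the 3 genes most correlated with each called member, genes of a list with large called differences, and some of the defining markers. The other family genes, all 7 called collagens and the other called list genes are named for completeness after their values were seen. The members and gene lists were chosen with earlier results of these data known. The script was tested on simulated data. The fit was repeated with 12 other choices, among them other normalizations, a pseudocount, a filter on dim probe sets, a replicate block, the one-way test of the methods and leaving out each array.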

Additional observations from a re-analysis of the deposited data

How the results depend on the processing

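The calls of the 8 members rested on both limits. With both limits loosened at once, to an adjusted p under 0.05 and no limit on the fold, 5 members passed in P19 NTES7 against P19 and 5 in R1 against P19, in place of 2 and 3. Each member was compared again in each comparison and setting. Of these log2 differences, 507 kept their side of the limits, and the other 6 passed where both limits were loosened. Leaving out each array in turn gave 2 to 2 called members in P19 NTES7 against P19, 3 to 3 in R1 against P19 and 2 to 2 in P19 NTES7 against R1. Counting R1 replicates 1 and 2, or also P19 replicates 1 and 2, as 1 array was chosen after seeing the data, and it gave 2, 3 and 2 called members. With 16 added before the log, the log2 difference of Dcn was 1.98 in P19 NTES7 against P19 and 3.30 in R1 against P19, and that of Lum in R1 against P19 was 1.35, since the P19 levels lie near the floor. The filter on dim probe sets left only Dcn, Bgn and Lum in the fit.

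The count over all genes in P19 NTES7 against P19, R1 against P19 and P19 NTES7 against R1 was 564, 1457 and 900. It was 240, 728 and 455 with 16 added before the log and 4061, 6911 and 5485 with an adjusted p under 0.05 and no limit on the fold. Each list was counted again in each comparison and setting. Of these counts, 69 moved by over 1.5 times, or from or to 0, and 855 stayed within that. With 16 added, called growth factors and receptors numbered 3 in each comparison against P19, TGF-β response genes 5 in P19 NTES7 against P19, proteases 3 in R1 against P19, and chondroitin and dermatan sulfate enzymes 1 in P19 NTES7 against P19 and 0 in R1 against P19.

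The replicate numbers of the labels did not pair the arrays: deviations of arrays with the same number had correlations between -0.20 and 0.03, and none exceeded 0.1. With the replicate number as a block, 2, 3 and 2 members were called, and 562, 1458 and 897 genes. 1 muscle marker was then called in R1 against P19.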

Other observations

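Some proteoglycan genes outside the SLRP family were called in each comparison. Of 24 genes for other chondroitin and heparan sulfate proteoglycans, none was called higher and 1 lower in P19 NTES7 against P19, 2 were called higher and 2 lower in R1 against P19, and 1 higher and 2 lower in P19 NTES7 against R1, where 2.83%, 7.31% and 4.51% of all genes were called. Their median log2 difference was -0.02, 0.00 and 0.01 in these comparisons. Without P19 replicate 3, and likewise without P19 NTES7 replicate 1, 2 were called in P19 NTES7 against P19. Vcan, the large chondroitin sulfate proteoglycan versican, averaged 33.9 ± 3.33 in P19 NTES7, 204 ± 6.49 in R1 and 46.6 ± 8.54 in P19 (SD, n = 3 each). Its log2 difference in P19 NTES7 against R1 was -2.60 (adjusted p 6.73e-09 in limma), and it was not called between P19 NTES7 and P19. Gpc3, a glypican held at the cell surface, averaged 792 ± 21.4 in P19 NTES7, 186 ± 7.36 in R1 and 772 ± 70.0 in P19. Ncan, the brain proteoglycan neurocan, averaged 14.0 ± 0.73 in P19 NTES7, 17.7 ± 2.62 in R1 and 52.6 ± 5.86 in P19, and was called lower in both comparisons against P19.

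Among 8 innate receptors and partners of biglycan and decorin, Cd44, a receptor for hyaluronan and proteoglycans, was the 1 gene called. It averaged 40.4 ± 3.18 in P19 NTES7, 38.5 ± 7.11 in R1 and 12.7 ± 0.36 in P19, and with 16 added before the log it was no longer called in either comparison against P19.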
